A study of Mus musculus with 12 samples.

Results

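The core circadian clock genes measured here were Clock, Per1, Per2, Per3, Cry1, Cry2, Nr1d1, Nr1d2, Dbp and Nfil3, chosen by name and found through the gene symbols of the array annotation. All 10 genes were matched, to 16 of the 20380 probe sets that carry 1 gene symbol. A probe set is a group of short probes on the array against 1 transcript, and those 20380 stand for 12393 genes.

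The circadian clock is a loop of transcription factors that runs in nearly every cell. CLOCK and its partner BMAL1, the product of Arntl, bind E-boxes in the Per and Cry genes, and the PER and CRY proteins then shut CLOCK and BMAL1 off. Another loop runs through Nr1d1 and Nr1d2, which code for the REV-ERB repressors, and the ROR activators, which compete for 1 DNA element. DBP, an activator, and NFIL3, a repressor, form a further arm through D-boxes. In liver this clock times metabolic genes, and in both organs it is set by feeding, body temperature and glucocorticoids.

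RNA was taken from lung and liver of female nude NCR mice, which lack a working thymus, 7 days after an orthotopic graft of the mouse mammary carcinoma line 4T1 or an injection of phosphate-buffered saline. There were 3 tumor-bearing and 3 control mice, both organs came from the same animals, and each organ was measured on 1 Affymetrix array, so 4 groups of 3 arrays were compared. The labels call the organs of tumor-bearing mice pre-metastatic, give no age, and do not state the hour at which organs were taken. Values are log2 GCRMA expression values, and differences are tumor-bearing minus control on that scale. A difference of 1 is a doubling.

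The groups carried the transcripts of their organs. The summed level of 6 measured alveolar epithelium markers (log2 of the sum) was 17.35 to 17.55 on lung arrays and 5.22 to 7.09 on liver arrays, and that of 10 hepatocyte markers was 19.02 to 19.16 on liver arrays. The hepatocyte sum stood out on 2 lung arrays, tumor-bearing replicate 1 (14.83) and control replicate 3 (15.37), while the remaining lung arrays read 9.48 to 11.47. The sum of 9 cardiac muscle markers also varied among lung arrays, from 11.47 to 13.60 in tumor-bearing and from 10.44 to 14.50 in control mice. The sum of 9 measured neutrophil markers, of 10 listed, ran from 16.47 to 16.67 in lungs of tumor-bearing mice, above the control range of 12.63 to 14.46. The liver ranges were 10.14 to 11.27 and 6.86 to 9.20, with Cd177 at the lowest value on all liver arrays and Ltf at that value on the liver arrays of control mice. In lung all 9 neutrophil probe sets were higher in tumor-bearing mice with arrays that did not overlap, against 18.2% of all in either direction. In liver 4 of the 9 were tested and 3 were higher with arrays that did not overlap, against 32.9% of all in either direction. The part of these cell types in the clock gene values was not tested, and in whole organs fewer cells of a type and less RNA per cell cannot be told apart.

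The stretches around the transcription starts of the clock genes were searched for exact letters of motifs through which the loops act. RefSeq promoter windows on GRCm38.p6, each 250 bases before to 50 bases after a start, were at hand for 9 of the 10 genes, in 12 windows. Per2 had none. Both strands were searched. The E-box CACGTG lay in the windows of Cry1 and Per1 and in 7.15% of all 32851 windows. The D-box, TTATGTAA or TTACGTAA, lay in that of Per3 and in 1.06% of all windows. The ROR element ANTNGGTCA lay in that of Nfil3 and in 2.24%, and the cAMP response element TGACGTCA lay in no clock gene window and in 1.79% of all. A match is a stretch of letters, not a measured binding site. Sites with other letters, or outside these windows, could not be found by this search. The 250 bases before the start are shown 5′ to 3′ for the 4 genes with a match, because the genes below are ordered by these loops, with the motif in capitals. They are Cry1 at chr10:85185055-85185304 on the minus strand, Per1 at chr11:69098699-69098948 on the plus strand, Per3 at chr4:151044666-151044915 on the minus strand and Nfil3 at chr13:52981040-52981289 on the minus strand.
Cry1: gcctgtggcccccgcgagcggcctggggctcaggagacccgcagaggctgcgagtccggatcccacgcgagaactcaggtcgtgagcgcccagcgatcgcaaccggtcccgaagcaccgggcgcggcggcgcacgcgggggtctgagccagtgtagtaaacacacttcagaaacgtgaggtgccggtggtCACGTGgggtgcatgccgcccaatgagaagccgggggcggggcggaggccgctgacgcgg
Per1: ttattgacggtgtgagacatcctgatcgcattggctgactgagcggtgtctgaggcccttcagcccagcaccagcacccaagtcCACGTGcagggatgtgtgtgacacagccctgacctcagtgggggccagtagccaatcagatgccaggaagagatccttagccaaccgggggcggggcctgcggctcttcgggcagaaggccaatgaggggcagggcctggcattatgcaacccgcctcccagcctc
Per3: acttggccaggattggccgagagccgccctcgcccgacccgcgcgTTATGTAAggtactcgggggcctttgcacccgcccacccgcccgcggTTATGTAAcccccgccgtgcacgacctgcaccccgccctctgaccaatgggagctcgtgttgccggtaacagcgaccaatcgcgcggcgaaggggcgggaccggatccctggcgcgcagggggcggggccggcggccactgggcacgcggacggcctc
Nfil3: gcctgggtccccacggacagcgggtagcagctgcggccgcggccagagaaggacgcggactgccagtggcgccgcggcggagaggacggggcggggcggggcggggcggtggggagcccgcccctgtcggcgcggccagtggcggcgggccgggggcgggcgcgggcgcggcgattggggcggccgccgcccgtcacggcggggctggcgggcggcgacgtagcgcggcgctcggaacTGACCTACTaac
The Cry1 E-box began 60 bases before the start and that of Per1 166 bases before it. Per3 held 2 D-boxes of the same letters, beginning 205 and 158 bases before the start. In Nfil3 the element began 12 bases before the start and reads as the reverse complement of the letters searched.

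Few clock genes passed the test for a difference between tumor-bearing and control mice. In lung 0 of 15 tested clock probe sets passed a limma adjusted p of 0.05 (Benjamini-Hochberg over all probe sets tested), where 50 of 12296 probe sets did (0.407%), and 6 of the 15 had an unadjusted p under 0.05, against 1554 of 12296 in all. In liver 1 of 15 passed, a fall of Clock, against 184 of 11972 in all (1.54%), and 8 of the 15 had an unadjusted p under 0.05, against 3063 of 11972. When the effect was averaged over the organs, Dbp rose on both of its probe sets and Cry1 fell, so 3 of 15 passed against 799 of 13128 in all (6.09%). No clock probe set passed the test of lung against liver, 0 of 15 against 176 of 13128 (1.34%), and 8 of the 15 had an unadjusted p under 0.05 there, against 2336 of 13128. The third Per3 probe set, 1421086_at, read 2.55 to 4.49 over the 12 arrays, did not reach the required value above 4 on 3 arrays, and was not tested.

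**Figure D1:**
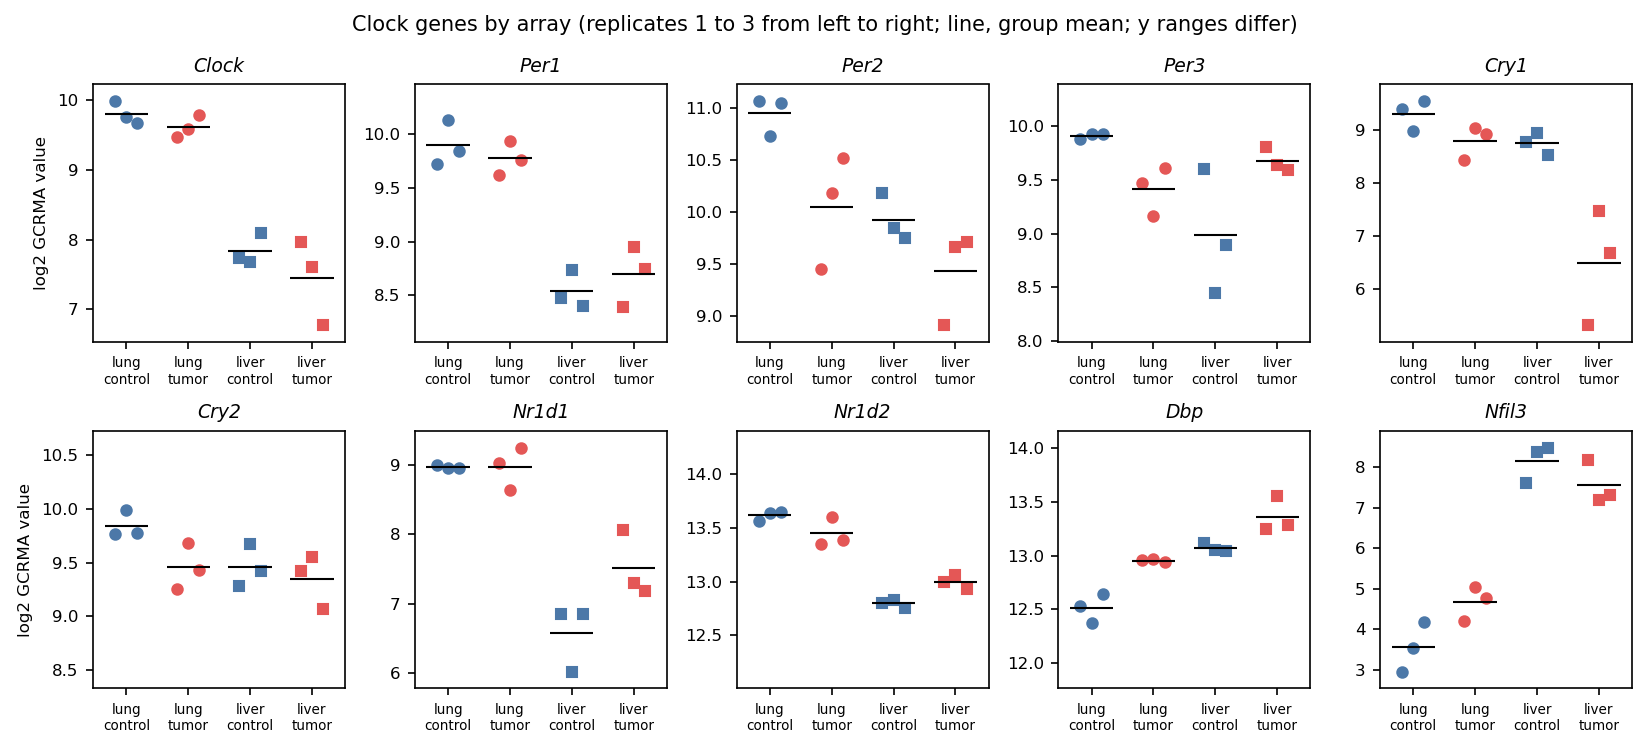
Log2 GCRMA value (y axis, a range of its own in each panel) of the brightest probe set of each clock gene on all 12 arrays, by organ and treatment (x axis). Points are arrays, replicates 1 to 3 from left to right, and lines are group means. In liver the 3 Cry1 points of tumor-bearing mice, 5.32 to 7.46, lie below the control points, 8.54 to 8.94, and the Dbp points of tumor-bearing mice lie above those of control mice in both organs.

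The activator Clock was the only clock gene to pass in 1 organ. Its probe set 1418660_at read 5.20, 5.11 and 5.05 in liver of tumor-bearing replicates 1 to 3 and 5.66, 5.82 and 5.65 in control replicates 1 to 3. All tumor-bearing values lay below all control values, and the level fell by 0.59 (SE 0.09, limma adjusted p = 0.0484), a 1.5-fold lower level. In lung the same probe set read 6.02 ± 0.22 and 5.97 ± 0.09 (SD, n = 3 each, tumor-bearing first). The brighter Clock probe set, 1418659_at, read 7.96, 7.61 and 6.77 against 7.74, 7.68 and 8.10 in liver, where the groups overlapped (-0.39, SE 0.32, adjusted p = 0.477). In lung it read 9.61 ± 0.16 and 9.81 ± 0.16 (adjusted p = 0.59). The call in liver was lost when any 1 of the 6 arrays was left out (adjusted p 0.079 to 0.146), and it rests on 1 of 2 probe sets of the gene.

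The partners of CLOCK gave no level to compare. Arntl, its main partner, and both probe sets of Npas2, a stand-in for CLOCK, lay at the lowest value of 2.04 on all 12 arrays, as did Arntl2, Rorb and Bhlhe41. A probe set at the lowest value shows neither the presence nor the absence of its transcript.

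Among the repressors of the Per family, Per2 was lower in lung of tumor-bearing mice on both of its probe sets, without passing the test. Probe set 1417602_at read 9.45, 10.18 and 10.51 in tumor-bearing lung and 11.06, 10.73 and 11.05 in control lung. The groups did not overlap, and the difference was -0.90 (SE 0.28, 95% interval -1.60 to -0.20, limma adjusted p = 0.289). In liver it read 8.91, 9.66 and 9.71 against 10.18, 9.85 and 9.75. These groups again did not overlap, by a gap between 9.71 and 9.75, and the difference was -0.50 (SE 0.25, adjusted p = 0.274). Tumor-bearing replicate 1 was the lowest array in each organ. Averaged over the organs Per2 differed by -0.70 (SE 0.20, adjusted p = 0.0708). The second Per2 probe set, 1417603_at, read 5.23, 6.04 and 6.04 against 6.32, 7.06 and 6.57 in lung (-0.88, adjusted p = 0.314) and 5.93 ± 0.18 against 6.07 ± 0.17 in liver (adjusted p = 0.571). On tumor-bearing replicates 2 and 3 of both organs it gave 1 identical value, 6.04, so it is a weak second reading. The cause of this tie was not tested. Without the 2 lung arrays rich in hepatocyte transcripts the lung differences of Per2 were -0.55 and -0.65.

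Per1, a gene that glucocorticoids and cAMP induce directly, did not pass in either organ. It read 9.62, 9.94 and 9.76 in tumor-bearing lung and 9.73, 10.14 and 9.84 in control lung. In liver it read 8.39, 8.95 and 8.74 against 8.47, 8.73 and 8.40. The groups overlapped in both organs, and the 95% intervals of the difference were -0.49 to 0.23 in lung and -0.27 to 0.59 in liver.

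Per3 pointed in opposite directions in the organs. Probe set 1421087_at read 9.47, 9.17 and 9.61 in tumor-bearing lung, below the control values of 9.88, 9.93 and 9.93. In liver it read 9.81, 9.64 and 9.59, and control values were 9.60, 8.45 and 8.90. The liver groups overlapped through control replicate 1 alone. The differences were -0.50 in lung (SE 0.13, limma adjusted p = 0.223) and 0.70 in liver (SE 0.29, adjusted p = 0.21). The test of lung against liver gave -1.20 (SE 0.34, adjusted p = 0.113). With 1 array left out at a time this difference was -1.51 to -0.93 and passed in 1 of 12 fits. That fit left out liver control replicate 1, the array through which the liver groups overlapped (-1.51, limma adjusted p = 0.0269). The others gave adjusted p up to 0.201. On the dimmer probe set 1460662_at the liver values of tumor-bearing mice were 5.51, 6.51 and 6.19, those of control mice 5.11, 4.62 and 4.62. These did not overlap (1.29, SE 0.29, adjusted p = 0.0746), and in lung the probe set read 3.60, 5.68 and 5.72 against 5.49, 5.75 and 5.25, where only tumor-bearing replicate 1 stood apart. Without that lung array the lung difference was 0.20.

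Cry1, a repressor of CLOCK and BMAL1, showed the largest difference of the 15 clock probe sets in liver. It read 5.32, 7.46 and 6.68 in tumor-bearing liver and 8.77, 8.94 and 8.54 in control liver. Every tumor-bearing array lay at least 1 unit below every control array, while the tumor-bearing arrays spread over more than 2 units, replicate 1 being the lowest. The difference was -2.26 (SE 0.54, 95% interval -3.60 to -0.92), a 4.8-fold lower level, and it did not pass within liver (limma adjusted p = 0.0835). Of 16 alternatives, only the fit in which all 12 arrays share 1 estimate of the spread put it under 0.05 (adjusted p = 0.0139). With 1 array left out the difference was -2.75 to -1.68 (adjusted p 0.0742 to 0.217). In lung Cry1 read 8.44, 9.05 and 8.92 against 9.39, 8.98 and 9.55, and the groups overlapped (-0.51, SE 0.22, adjusted p = 0.42). Averaged over the organs Cry1 fell by 1.38 (SE 0.31, adjusted p = 0.031). The liver difference was larger than that in lung by 1.76, which did not pass (SE 0.62, adjusted p = 0.183). Its only probe set is 1433733_a_at.

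Cry2, the other cryptochrome, read 9.26, 9.69 and 9.43 in tumor-bearing lung and 9.77, 9.99 and 9.77 in control lung. The groups did not overlap and differed by -0.39 (SE 0.14, limma adjusted p = 0.349). In liver it read 9.35 ± 0.25 and 9.46 ± 0.20 (SD, n = 3 each), a difference of -0.11 with a 95% interval of -0.53 to 0.30.

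The REV-ERB genes had higher values in liver of tumor-bearing mice, on arrays that did not overlap, without passing the test. Nr1d1 read 8.06, 7.30 and 7.18 in tumor-bearing liver and 6.85, 6.02 and 6.85 in control liver, where the 6.85 of replicates 1 and 3 is 1 identical value. The groups did not overlap, with a difference of 0.94 (SE 0.33, limma adjusted p = 0.157), a 1.92-fold higher level that did not pass. In lung it read 9.04, 8.64 and 9.25 against a control mean of 8.97 ± 0.02 (SD, n = 3), a difference of 0.00 (95% interval -0.40 to 0.41). Nr1d2 repeated this on 2 probe sets. In liver 1416958_at read 12.99, 13.06 and 12.93 against 12.80, 12.83 and 12.76, and 1416959_at read 7.17, 7.30 and 7.18 against 6.78, 6.37 and 7.03. Neither pair of groups overlapped (0.20 and 0.49, adjusted p = 0.155 and 0.159). In lung both probe sets had a lower mean in tumor-bearing mice, -0.17 and -0.56, with overlapping arrays. The tests of lung against liver gave -0.94 for Nr1d1 (adjusted p = 0.249) and -0.37 and -1.05 for Nr1d2 (adjusted p = 0.166 and 0.194), so a difference between the organs was not shown. Rora, the activator that shares their element, read 9.95 ± 0.18 against 10.18 ± 0.05 in lung and 10.33 ± 0.20 against 10.16 ± 0.08 in liver on its brightest probe set (adjusted p = 0.481 and 0.42).

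Dbp, the D-box activator and a direct target of CLOCK and BMAL1, rose in the mean of the organs on both of its probe sets. Probe set 1438211_s_at read 12.96, 12.97 and 12.94 in tumor-bearing lung and 12.53, 12.37 and 12.64 in control lung. In liver it read 13.25, 13.55 and 13.29 against 13.11, 13.05 and 13.05. The groups did not overlap in either organ. The differences were 0.44 in lung (SE 0.10, limma adjusted p = 0.174) and 0.29 in liver (SE 0.10, adjusted p = 0.153), and their mean of 0.36 passed (SE 0.07, adjusted p = 0.0215), a 1.29-fold rise. The order of the 4 groups from low to high was control lung, tumor-bearing lung, control liver and tumor-bearing liver, with no overlap between neighbours. On probe set 1418174_at the liver values were 11.95, 12.21 and 11.95 against 11.54, 11.45 and 11.41. They did not overlap (0.57, SE 0.10, adjusted p = 0.0554), while in lung 11.22, 11.07 and 10.73 overlapped 10.66, 10.96 and 10.74 (0.22, adjusted p = 0.616). The mean of the organs rose by 0.39 on this probe set (SE 0.10, adjusted p = 0.0435).

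The 3 calls in the mean of the organs depend on the arrays and on how the mice are counted. The fit takes 12 arrays as independent although they come from 6 mice, and 0 of the 3 passed when the lung and liver arrays of 1 number were averaged as 1 mouse. Left-out arrays ended the call of Dbp 1438211_s_at in 1 of 12 cases, without lung control replicate 1 (adjusted p = 0.0506), that of Dbp 1418174_at in 11 of 12, all but lung tumor replicate 3 (adjusted p up to 0.1), and that of Cry1 in 8 of 12, all but the 3 liver tumor arrays and lung tumor replicate 3 (adjusted p up to 0.0711). Without both lung arrays rich in hepatocyte transcripts the mean differences were 0.40 and 0.33 for Dbp and -1.23 for Cry1 (adjusted p = 0.0609, 0.143 and 0.123).

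Nfil3, the repressor that opposes DBP at D-boxes, was low in lung and far higher in liver. In lungs of tumor-bearing mice it read 4.20, 5.05 and 4.76, in those of control mice 2.96, 3.53 and 4.19. The groups were kept apart by 4.20 against 4.19 (1.11, SE 0.37, limma adjusted p = 0.305). Those 2 values came from the lung arrays rich in hepatocyte transcripts, and a part of hepatocytes in them was not tested. In liver Nfil3 read 8.18, 7.19 and 7.32 against 7.62, 8.39 and 8.49, with overlap (-0.60, SE 0.35, adjusted p = 0.336). The test of lung against liver gave 1.72 (SE 0.54, adjusted p = 0.148). Of the other D-box activators, Tef read 11.84 ± 0.23 against 12.07 ± 0.15 in lung and 11.42 ± 0.07 against 11.53 ± 0.13 in liver. Hlf read 7.95 ± 0.39 against 7.98 ± 0.11 in lung and 9.16 ± 0.54 against 9.59 ± 0.17 in liver (each SD, n = 3, brightest probe set). Neither gene passed in either organ, with adjusted p from 0.387 to 0.97 for these probe sets.

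**Figure D2:**
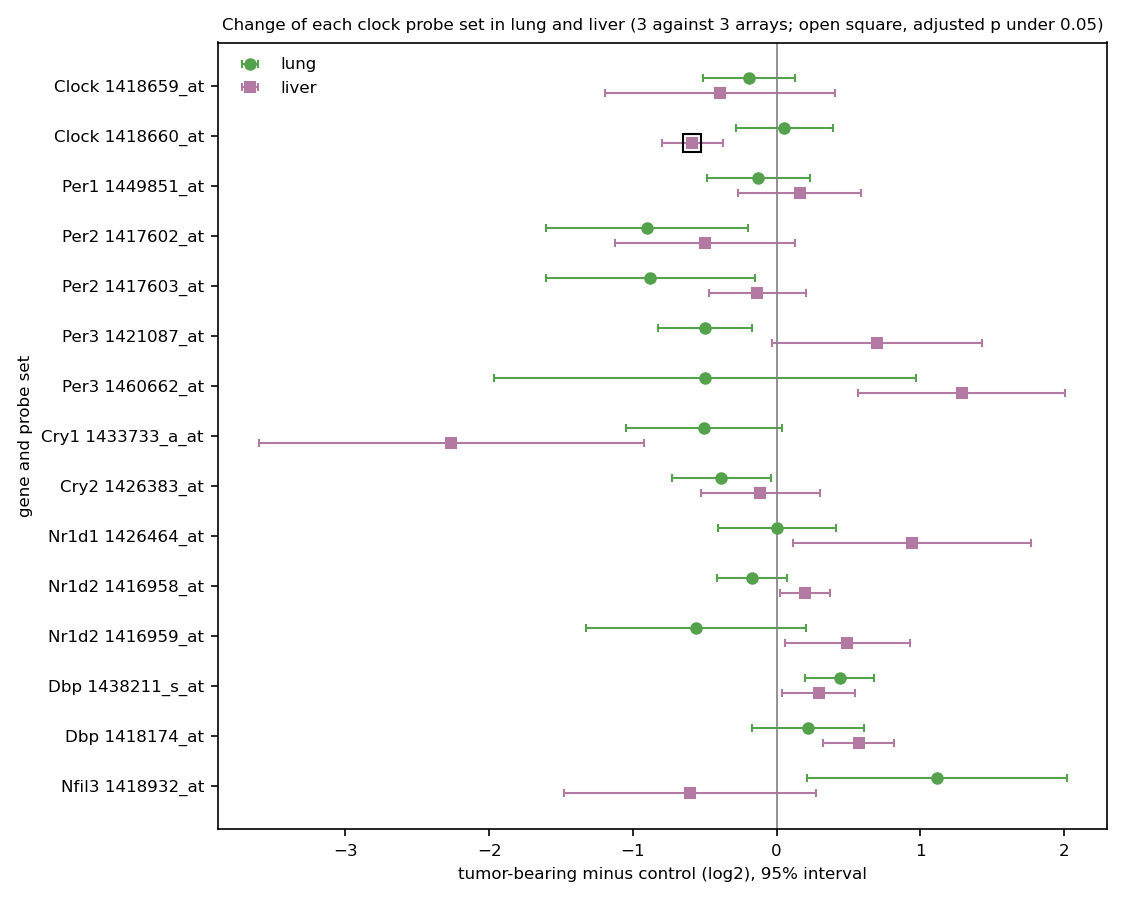
Difference between tumor-bearing and control mice (log2, x axis) for the 15 tested clock probe sets (y axis) in lung and in liver, 3 arrays against 3, with 95% intervals from limma. The open square marks the only adjusted p under 0.05, Clock 1418660_at in liver at -0.59, and the widest departure is Cry1 in liver at -2.26.

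Shared directions between the organs were counted next. Of the 15 clock probe sets 8 differed in the same direction in lung and liver (53.3%), 3 higher and 5 lower, and of all 11159 probe sets tested in both organs 53.9% did. Tumor-bearing and control arrays lay apart for 6 of 15 clock probe sets in lung, where 18.2% of all did, and for 9 of 15 in liver, where 32.9% of all did. In lung 4 of these 6 were lower in tumor-bearing mice, both probe sets of Per2, 1 of Per3 and Cry2, and 2 were higher, Dbp and Nfil3. In liver 3 of the 9 were lower, Clock, Per2 and Cry1, and 6 were higher, Per3, Nr1d1 and both probe sets of Nr1d2 and of Dbp. In both organs and in the same direction, 2 of 15 did not overlap (13.3%), Per2 1417602_at lower and Dbp 1438211_s_at higher, against 4.54% of all. The median difference of the clock probe sets was -0.19 in lung and 0.16 in liver, against -0.03 and -0.05 over all probe sets tested.

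**Figure D3:**
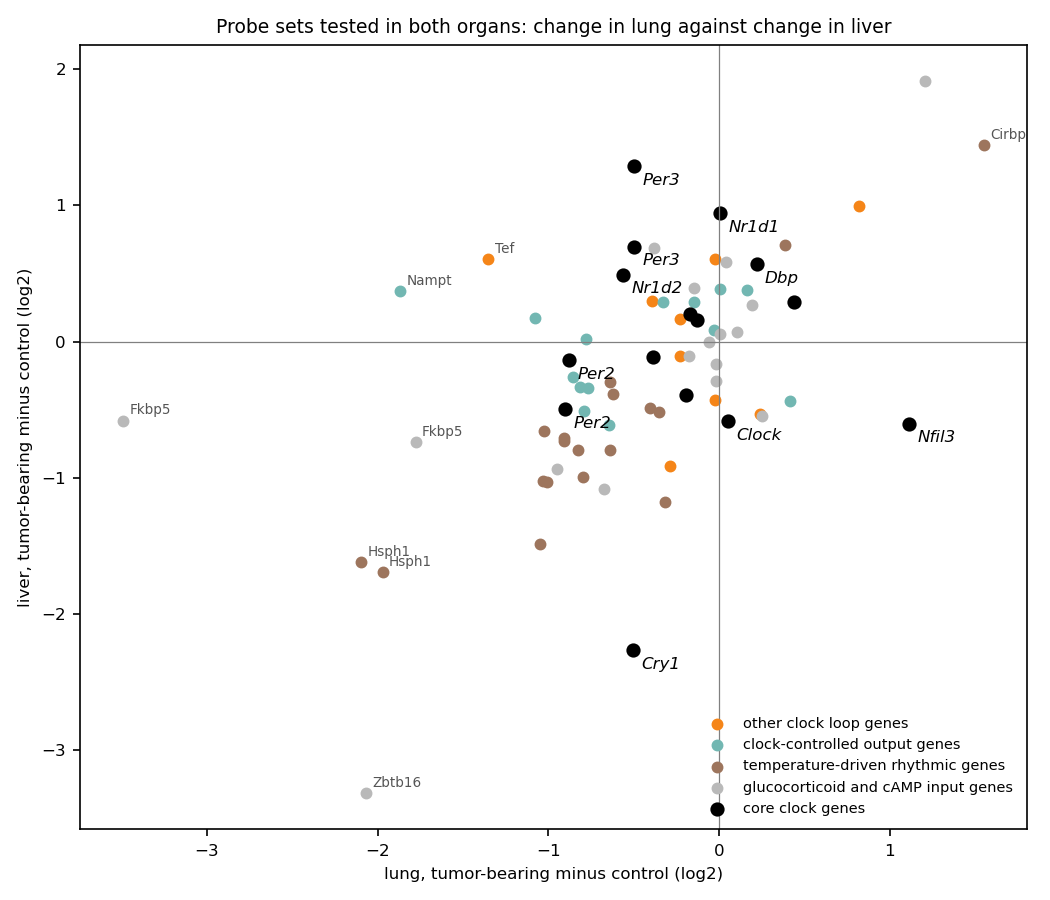
Difference between tumor-bearing and control mice (log2) in lung (x axis) against that in liver (y axis), 1 point per probe set tested in both organs, for clock genes (black) and 4 groups of related genes (colours). Per3 and Nr1d1 lie above the horizontal line without a rise in lung, Cry1 lies lowest of the clock genes in liver at -2.26, and Cirbp and Hsph1 lie far from 0 in both organs and in opposite corners.

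In control mice the clock genes differed between the organs themselves. All 15 tested probe sets passed between lung and liver, 12 higher in lung and 3, both of Dbp and that of Nfil3, higher in liver, where 78.8% of all probe sets passed. Nr1d1 was higher in lung by 2.40 (SE 0.24, limma adjusted p = 0.000177), a 5.29-fold difference. Clock 1418659_at was higher in lung by 1.97, Per1 by 1.37 and Per2 1417602_at by 1.02. Nfil3 was lower in lung by 4.61 (SE 0.38, adjusted p = 7.44e-05), and Dbp by 0.55 and 0.68. Over all probe sets the median of this comparison was 0.17, and it was -0.32 with arrays centred on their medians. With that centring Clock 1418660_at and Cry2 changed sign and 8 of 15 probe sets passed, and without liver control replicate 3 it was 9 of 15. This fit takes lung and liver arrays as independent although both organs came from the same 3 control mice. With the replicate block 11 of 15 passed.

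Of the other genes of the clock loop, 10 had a probe set and 5 were tested, and Ciart was not matched. Over all probe sets tested of these genes the differences ran from -1.35 to 0.82 in lung and from -0.91 to 0.995 in liver. None of their 9 tested probe sets passed in lung or liver, where 1 and 4 had an unadjusted p under 0.05 (1554 of 12296 and 3063 of 11972 in all), and 1 rose in the mean of the organs, where 6.09% of all passed. That was Bhlhe40, an E-box repressor. It read 11.65, 11.72 and 11.81 in tumor-bearing liver and 11.31, 10.96 and 11.09 in control liver, while in lung both groups lay between 10.52 and 10.69. The liver difference was 0.61 (SE 0.11, limma adjusted p = 0.0585) and the mean of the organs 0.29 (adjusted p = 0.0452).

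Of 12 genes that modify clock proteins 8 were measured, and 0 of 16 tested probe sets passed in lung, 3 with an unadjusted p under 0.05, and 2 of 15 in liver, both lower. Over all probe sets 0.407% and 1.54% passed. Gsk3b, a kinase that marks several clock proteins, read 6.29, 6.46 and 6.31 in tumor-bearing liver and 7.86, 7.62 and 7.38 in control liver. It fell by 1.27 (SE 0.14, limma adjusted p = 0.0338), and in lung it read 8.77 ± 0.26 against 8.49 ± 0.26, the difference between the organs passing (1.54, adjusted p = 0.0184), as did that of Csnk1d 1437690_x_at (0.97, adjusted p = 0.0385). Csnk1d, which codes for the PER kinase CK1 delta, fell in liver on probe set 1437690_x_at by 0.85 (adjusted p = 0.0363), whereas its other 4 probe sets differed there by -0.15 to 0.45 and did not pass. In the mean of the organs these 2 probe sets fell by 0.49 and 0.36, and Btrc, part of the ubiquitin ligase for PER proteins, rose by 0.41 (adjusted p = 0.0423). Both liver calls were lost without any 1 of the 6 arrays (adjusted p up to 0.144). The difference of Gsk3b between the organs kept its call in 10 of 12 such fits, not without lung tumor replicate 1 or lung control replicate 2 (adjusted p = 0.0539 and 0.0556), and that of Csnk1d in 3 of 12. Neither passed when the lung and liver arrays of 1 number were paired as 1 mouse (adjusted p = 0.0773 for Gsk3b and 0.138 for Csnk1d) or without both lung arrays rich in hepatocyte transcripts (adjusted p = 0.103 and 0.118).

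Of 14 output genes of the clock 13 were measured. In lung 1 of 14 tested probe sets passed, against 0.407% of all, and 9 had arrays that lay apart, 8 of them lower, against 18.2% of all. The lung differences had a median of -0.71, against -0.03 over all probe sets. In liver 0 of 22 passed, 3 with an unadjusted p under 0.05 against 3063 of 11972 in all, and the median was 0.04. The call was Nampt, the enzyme that paces NAD synthesis. Its probe set 1448607_at read 4.90, 5.65 and 5.28 in tumor-bearing lung and 7.17, 7.13 and 7.15 in control lung. It fell by 1.87 (SE 0.19, limma adjusted p = 0.0304), and its brighter probe set, 1417190_at, differed by -0.78 (adjusted p = 0.279). In liver 1448607_at read 8.91 ± 0.34 against 8.54 ± 0.38, and the difference between the organs passed (-2.24, adjusted p = 0.0148). The lung call was lost without any 1 of the 6 lung arrays (adjusted p up to 0.153), and the difference between the organs kept its call in 12 of 12 such fits but not without both lung arrays rich in hepatocyte transcripts (-2.05, adjusted p = 0.0717). Wee1, a cell cycle kinase gene with E-boxes, fell by 0.58 in the mean of the organs (adjusted p = 0.0201), and Avpr1a, a vasopressin receptor gene, rose by 0.58 (adjusted p = 0.0486) while lying near the lowest value in lung.

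Among genes that follow body temperature, Cirbp rose and Hsp90aa1 fell in lung. Of 18 probe sets of 8 genes 2 passed in lung (0.407% of all did) and 0 in liver (1.54% of all), where 7 had an unadjusted p under 0.05 against 3063 of 11972 in all. In the mean of the organs 1 rose and 7 fell, where 6.09% of all passed. Cirbp, a cold-inducible RNA-binding protein known to affect Clock transcripts, read 10.16, 9.78 and 9.79 in tumor-bearing lung and 8.08, 8.60 and 8.39 in control lung. In liver it read 8.70, 8.39 and 8.08 against 7.23, 7.05 and 6.56. Neither pair of groups overlapped, and Cirbp rose by 1.55 in lung (SE 0.18, limma adjusted p = 0.0391) and by 1.50 in the mean of the organs (SE 0.16, adjusted p = 0.00129), with 1.44 in liver (adjusted p = 0.055). The mean call of Cirbp was kept in all 12 fits that left out 1 array. The 7 probe sets that fell were of chaperone genes. Hsph1 fell by 1.83 and 1.86, Dnaja1 by 0.82 and 0.84, Hsp90aa1 by 0.81 and 0.72, and Hspa8 by 0.50 on 1 of 4 probe sets. In lung Hsp90aa1 1426645_at read 12.96, 13.13 and 13.24 against 14.01, 14.02 and 14.02 (adjusted p = 0.0354). Each lung call was lost without any 1 of the 6 arrays (adjusted p up to 0.172).

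A list of 12 genes of glucocorticoid and cAMP signalling, which holds the glucocorticoid receptor, cAMP-responsive factors and targets of both signals, was measured in full. No probe set passed in lung or liver, where 4 of 17 and 9 of 18 had an unadjusted p under 0.05 against 1554 of 12296 and 3063 of 11972 in all. In the mean of the organs 4 of 18 fell, where 6.09% of all passed in either direction. They were of Fkbp5, Tsc22d3 and Zbtb16, each induced by glucocorticoids. Fkbp5 1448231_at read 3.06, 5.49 and 5.14 in tumor-bearing lung and 7.36, 8.64 and 8.17 in control lung, and 7.55, 9.17 and 9.38 against 8.95, 9.21 and 9.68 in liver. Zbtb16 1419874_x_at read 7.79, 10.21 and 10.53 against 11.56, 11.50 and 11.67 in lung, and 4.40, 8.09 and 7.64 against 9.76, 10.16 and 10.16 in liver. The groups of both genes lay apart in lung, and in liver those of Fkbp5 overlapped. Tumor-bearing replicate 1 was the lowest array for these probe sets in each organ, as for Per2 1417602_at and, in both organs, Cry1. The mean differences were -2.04 for Fkbp5 (SE 0.47, limma adjusted p = 0.034), -2.69 for Zbtb16 (SE 0.65, adjusted p = 0.0394) and -0.88 and -0.94 for Tsc22d3 (adjusted p = 0.0242 and 0.0374). Nr3c1, the glucocorticoid receptor gene, differed by 0.19 in lung and 0.27 in liver on its brightest probe set, without passing. These means again count 12 arrays of 6 mice, and with the arrays of 1 number averaged as 1 mouse Cirbp was the only one of the related genes named for the mean that passed (adjusted p = 0.0319). With 1 array left out at a time Wee1 kept its call in the mean in 11 of 12 fits, all but that without liver control replicate 1 (adjusted p = 0.0506), and Hsp90aa1 1426645_at in 9 of 12. The other related probe sets that passed in the mean, Cirbp apart, kept theirs in 1 to 7 of 12.

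Genes most like Dbp across the arrays were sought outside the clock genes listed at the start, which were left out of this ranking. After each organ's mean was taken off, the correlation with Dbp 1438211_s_at over 12 arrays was highest for Ints7 (0.93), Pik3cd (0.92) and Stk17b (0.91) and lowest for Toe1 (-0.94), Kpna1 (-0.92) and Prmt7 (-0.91), among 7179 genes. The other Dbp probe set correlated at 0.67, Nr1d1 at 0.31, Nfil3 at 0.25, Cry1 at -0.40, Cry2 at -0.54 and Per2 at -0.57. Clock correlated at -0.37, and Per1 (0.04), Per3 (-0.004) and Nr1d2 (-0.02) lay near 0 (brightest probe set of each gene). These points share arrays and the grouping by treatment, and the extremes of so many genes are a description.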

How the data were processed

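Expression in lung and liver of 6 mice was measured on 12 Affymetrix mouse arrays from total RNA. The authors deposited log2 expression values per probe set, and GCRMA and limma are named in the submitters' processing notes, with versions and settings not given in the sources used here. GCRMA models background from probe sequence, and low probe sets share a lowest value, 2.04 on these arrays. The distributions of lung and liver arrays were not equal. In control mice the median difference between lung and liver was 0.17, and -0.002 after further quantile normalization. Levels of the 2 organs are therefore not on a fully common scale. Of 22626 probe sets, 20380 had 1 gene symbol, 691 several and 1555 none, and the latter groups were not tested. Probe sets above 4 on 3 or more arrays of a fit were compared with limma 3.58.1 in R 4.3.3 (lmFit and eBayes, two-sided, Benjamini-Hochberg over all probe sets tested, threshold 0.05), within lung, within liver, as the difference and the mean of both organs over 12 arrays, and between organs in control mice. Every adjusted p is limma's. The number of arrays limits the precision, and each p-value weighs a difference against the spread of arrays within groups. Main fits that hold both organs take arrays of the same mice as independent. A group's arrays did not overlap where every value of 1 group lay above every value of the other. Intervals are 95% intervals from limma.

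All probe sets of the 10 clock genes are described whatever their values. Related genes are named where they passed, at most 5 a list by size, with Arntl, Npas2, Tef, Hlf, Ciart, Bhlhe40, Bhlhe41 and Rora always named. The clock genes and lists were chosen with earlier results of these data known. Promoters are RefSeq windows. The tests were tested on simulated data, with independent arrays and changes planted in brighter probe sets. A planted difference of 1 in either direction was called in 61% of cases in lung and 66% in liver. It was called in 55% in the difference between the organs, 86% in their mean and 58% between the organs of control mice. A real difference of this size can therefore fail to pass. Alternatives covered filters, probe set choice, normalization, variance model, array weights, threshold, arrays left out and a replicate block.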

Additional observations from a re-analysis of the deposited data

How the results depend on the processing

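With 3 arrays a group, single arrays decide the clock calls. In lung 0 clock probe sets passed under every alternative tried. In liver the count of 1 became 0 with no filter on low values, with 1 probe set per gene, with further quantile normalization and with the replicate block, 2 with a filter at 5, with arrays centred on their medians and with array weights, 3 with all 12 arrays in 1 fit, 4 at a threshold of 0.10, and 0 without any 1 array (0 to 0). It stayed at 1 with trend and robust options, but there Clock 1418660_at was lost (adjusted p = 0.080) and Dbp 1418174_at passed, higher by 0.57 (adjusted p = 0.0334). In the difference between the organs 0 became 1 at a threshold of 0.10, and 0 to 1 with 1 array left out. In the mean of the organs 3 became 1 with no filter, 5 with array weights and at a threshold of 0.10, 0 with the replicate block and 0 without both lung arrays rich in hepatocyte transcripts, and 0 to 5 with 1 array left out. Between the organs of control mice 15 became 8 with median centring and 9 to 12 with 1 array left out.

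Over all probe sets the counts of calls moved as much. In lung 50 became 10 with no filter, 103 with trend and robust options, 78 with array weights, 146 at 0.10, 303 with all 12 arrays, 0 without both hepatocyte-rich arrays and 0 to 6 with 1 array left out. In liver 184 became 96 with no filter, 371 with a filter at 5, 476 with median centring, 576 with trend and robust options, 303 with array weights, 1251 at 0.10, 1004 with all 12 arrays and 0 to 4 with 1 array left out. In the difference 176 became 527 at 0.10, 54 without both arrays and 69 to 195 with 1 left out. In the mean 799 became 1440 at 0.10, 250 without both arrays and 348 to 854 with 1 left out. Further quantile normalization moved the liver calls from 69 higher of 184 to 108 of 221 and the mean from 339 higher of 799 to 385 of 729, and median centring moved the difference from 106 higher of 176 to 151 of 213. In control mice 5698 of 10097 were higher in lung, 5275 of 10552 after quantile normalization and 4111 of 10533 after median centring.

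Some directions turned, none of a difference that had passed within an organ or in the mean of the organs. Between the organs of control mice Clock 1418660_at was -0.23 after further quantile normalization and -0.22 after median centring, and Cry2 -0.095 after the latter. In lung Clock 1418660_at was -0.0075 without both hepatocyte-rich arrays and -0.053 to 0.17 with 1 array left out. Nr1d1 in lung was -0.027 with array weights, -0.034 without both arrays, and -0.13 to 0.17 with 1 array left out. Per3 1460662_at in lung was 0.076 without both arrays and -0.86 to 0.20 with 1 array left out. Cry2 in liver was -0.22 to 0.027 with 1 array left out, and the difference between the organs of Clock 1418659_at -0.14 to 0.46. In the mean of the organs Nr1d2 1416959_at was 0.040 with array weights and -0.16 to 0.084 with 1 array left out, and Nr1d2 1416958_at -0.025 to 0.038, Per1 -0.047 to 0.092 and Per3 1421087_at -0.034 to 0.25. Where no construction such as fewer arrays or fewer probe sets tested accounts for a move, the cause was not tested.

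Both organs came from the same animals, per the labels. Lung and liver arrays of the same replicate number also share an array number in the sample descriptions, yet no label says that it marks an animal. Deviations from the group means correlated at -0.01 to 0.16 between lung and liver arrays of the same number and at -0.15 to 0.04 between those of other numbers, and at -0.29 to 0.29 between tumor-bearing and control arrays of the same number, so the numbers were not shown to pair samples. With the number as a replicate block 0 clock probe sets passed in the difference or mean (23 and 49 over all probe sets). Between the organs 11 of 15 passed. Within lung or liver the block pairs different mice, so its 2 and 0 calls (0 of clock genes) are no check by animal.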
